A study of Capra hircus with 20 samples.

Results

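The 10 libraries described here hold cultured goat cells from skeletal muscle (IMA) and from subcutaneous fat (SA) after 3 days of induction with oleic acid. They were chosen by their labels, IMA1 to IMA5 and SA1 to SA5, and make up 10 of the 20 libraries of the series. The other 10 libraries hold the same kinds of cells at day 0, before induction, and are labelled IMPA for the cells from muscle and SPA for the cells from subcutaneous fat. All cells came from 7-day-old male Jianzhou Daer goats, of which there were 5. Cells were released with collagenase from the longissimus dorsi muscle or from subcutaneous fat and were used at passage 3. The IMA and SA cells then spent 3 days in DMEM/F12 medium with 10% fetal bovine serum and oleic acid. Each group has 5 biological replicates. No cells were kept for 3 days without oleic acid, so time in culture and induction cannot be told apart. RNA was measured by strand-specific sequencing, and the values are FPKM, fragments scaled to transcript length and library size.

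Fat cells arise from stromal precursors under transcription factors such as PPARG and the C/EBP proteins, and they store fatty acids as triglyceride in droplets coated by perilipins and CIDE proteins. Intramuscular fat lies between the fibre bundles of skeletal muscle, next to satellite cells, the muscle stem cells, which express PAX7 and MYF5 and fuse into fibres under MYOD1 and MYOG. Precursors leave the cell cycle as they differentiate and surround themselves with a matrix of collagens, laminins and proteoglycans.

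Before any gene is compared, the libraries themselves differed in small ways. The summed FPKM of all features was 543490 ± 22618 (SD, n = 5) in the IMA libraries and 575360 ± 18618 in the SA libraries (exact two-sided permutation test, p = 0.0476, adjusted p = 0.0595 over 5 library measures). Summed over mRNA alone it did not differ at this number of libraries (exact p = 0.571). A single newly assembled transcript, LNC_010228, took 26.9%, 21.0%, 19.95%, 21.3% and 22.4% of the FPKM in IMA1 to IMA5 and 23.6%, 26.4%, 26.4%, 27.2% and 27.5% in SA1 to SA5 (exact p = 0.0317, adjusted p = 0.0528). IMA1 and SA1 each lay among the other group's values. The number of genes at 1 FPKM or more was 11357 ± 25.7 in the IMA libraries and 10998 ± 38.6 in the SA libraries, with no overlap (exact p = 0.00794, the smallest that divisions of 10 libraries into 5 and 5 can give, adjusted p = 0.0198). By the study's own read statistics, not reprinted here, the mapped share was higher in IMA than in SA libraries, and its part was not tested. By the same statistics, the mapped share and the GC content of every IMPA library lay above those of all other libraries. Their part in the comparisons with day 0 was not tested. How many reads stand behind a value cannot be told, because the files hold FPKM and no counts. Across genes, Pearson correlations of log2(FPKM + 1) ran from 0.987 to 0.991 within the groups (20 pairs) and from 0.841 to 0.848 between them (25 pairs), a description of the libraries, since genes are not independent replicates.

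The label adipocyte was checked against marker genes. Of 8 adipocyte markers, FABP4 has no symbol in the files and was not analysed here, and 4 of the other 7 (ADIPOQ, LEP, PLIN1 and PPARG) had a mean under 1 FPKM over the 10 libraries. ADIPOQ, the adipokine of mature fat cells, stood at 0.124, 0.254, 0.0593, 0.477 and 0.157 FPKM in the IMA libraries and 0.272, 0.596, 0.154, 0.491 and 0.234 FPKM in the SA libraries. LEP, which encodes leptin, was listed at 0 in every SA library and at 0.160, 0.197, 0.106, 0.0943 and 0.212 FPKM in the IMA libraries. PPARG, the main factor of adipogenesis, stood at 0.197, 0.340, 0.475, 0.441 and 0.368 FPKM in the IMA libraries and 1.26, 0.864, 1.24, 0.681 and 1.11 FPKM in the SA libraries. These genes, which define mature fat cells, were thus low in both groups. The study reports lipid droplets by Oil Red O staining in both kinds of induced cells, which is not in the files. It also reports less Pref-1 mRNA in the induced cells than in preadipocytes. DLK1, the gene of Pref-1, was low on both days and was not tested here. Its means were 0.0114 FPKM in IMPA, 0.0316 FPKM in IMA, 0.145 FPKM in SPA and 0.157 FPKM in SA. The groups are called IMA and SA libraries in what follows. CEBPA was the most abundant adipocyte marker over the 10 libraries, at 5.42 ± 0.628 FPKM (SD, n = 5) in the IMA libraries and 3.91 ± 0.603 FPKM in the SA libraries, where CIDEC was higher at 4.35 ± 0.187 FPKM. The 7 adipocyte markers together summed to 8.29, 7.23, 7.30, 8.41 and 7.19 FPKM in IMA1 to IMA5 and 12.1, 11.3, 11.7, 11.1 and 9.90 FPKM in SA1 to SA5.

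Markers of skeletal muscle were abundant in the IMA libraries and nearly absent from the SA libraries. The 7 skeletal muscle markers in the files (MYOD1, MYOG, DES, ACTA1, CKM, TNNT3 and CHRNA1; MYH3 was not analysed here) summed to 4169, 4325, 4167, 4541 and 4562 FPKM in IMA1 to IMA5. In SA1 to SA5 they summed to 8.41, 8.07, 7.14, 8.29 and 7.29 FPKM, most of it from TNNT3. DES, the muscle intermediate filament, was the most abundant of them in IMA, and CKM, the muscle creatine kinase, was listed at 0 in all 5 SA libraries. The 3 satellite cell markers PAX7, MYF5 and CDH15 summed to 58.6, 58.8, 61.0, 58.1 and 62.0 FPKM in the IMA libraries and to 0, 0.0610, 0.0940, 0 and 0.189 FPKM in the SA libraries, with MYF5 the most abundant in IMA. Stromal markers summed higher in SA, and 3 of the 8 were called. The 8 together summed to 1134, 1155, 1066, 1130.5 and 1104 FPKM in IMA1 to IMA5 and 5423, 5443, 5637, 5432 and 5224 FPKM in SA1 to SA5, led by DCN, while DLK1 and CD34 stayed under 1 FPKM in both groups. In bulk samples such as these, fewer cells of a type and less RNA per cell cannot be told apart. The part of the muscle and stromal markers in the differences below was not tested.

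**Figure D1:**
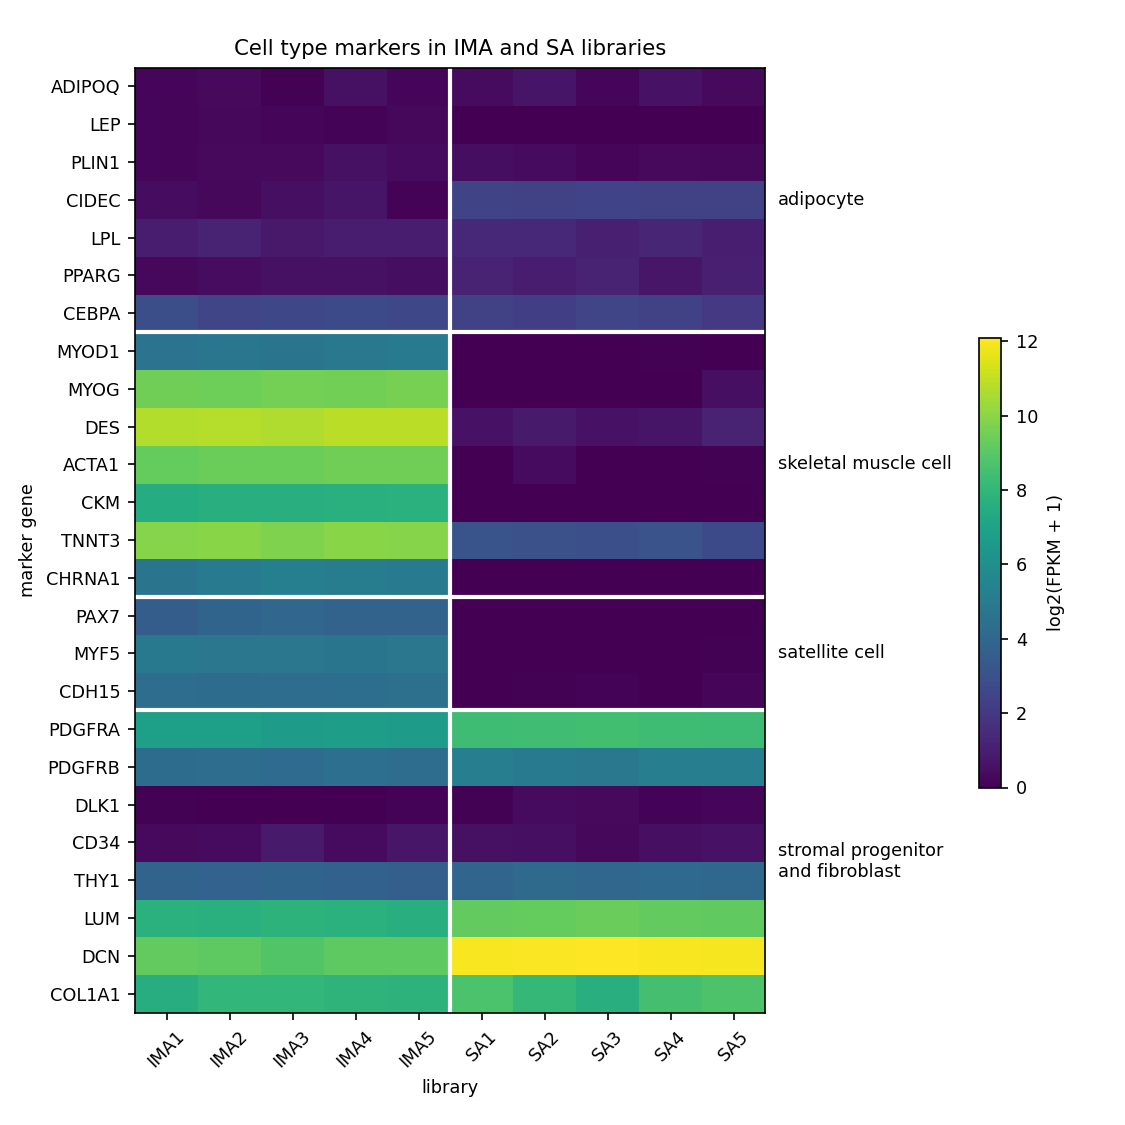
Levels of cell type markers as log2(FPKM + 1), colour scale, in each of the 10 libraries (columns, IMA left and SA right of the white line) for adipocyte, skeletal muscle, satellite cell and stromal markers (rows, one gene each). The skeletal muscle and satellite cell genes are high in all 5 IMA libraries and dark in the 5 SA libraries, apart from TNNT3.

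Markers of other cell types were low or differed little between the groups, with 1 exception. All 7 endothelial markers had a mean under 1 FPKM. Of 7 immune markers, CD14 led with 9.93 FPKM in the IMA libraries and 13.0 FPKM in the SA libraries, and PTPRC, carried by all white blood cells, was listed at 0 in 9 of the 10 libraries. The 5 pericyte and smooth muscle markers summed to 9.65, 9.98, 8.73, 10.5 and 10.0 FPKM in IMA1 to IMA5 and 8.98, 9.21, 8.15, 9.01 and 8.25 FPKM in SA1 to SA5, led by ABCC9 in IMA and CSPG4 in SA. Of 4 Schwann cell markers only S100B exceeded 1 FPKM, with means of 34.3 FPKM in IMA and 27.2 FPKM in SA. The exception was CDH1, the epithelial cadherin, at 27.8, 31.7, 31.9, 35.1 and 32.6 FPKM in the IMA libraries and 0.00917, 0, 0, 0 and 0.0164 FPKM in the SA libraries. The groups did not overlap, although KRT5 was listed at 0 in all 10 libraries and KRT14 and EPCAM stayed under 1 FPKM in mean.

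The induced cells of the 2 depots differed widely. A gene was called when limma gave an adjusted p under 0.05 and the mean log2(FPKM + 1) of the groups differed by at least 1, which is 2-fold for genes well above 1 FPKM. Of 11436 mRNA genes that averaged 1 FPKM or more across these libraries, 915 (8.00%) were called higher in the IMA libraries and 584 (5.11%) higher in the SA libraries. By the adjusted p alone, 3306 genes (28.9%) were higher in IMA and 4881 (42.7%) in SA. At an unadjusted p under 0.05 these were 3408 (29.8%) and 5034 (44.0%), and by adjusted p after upper-quartile scaling 4187 (36.6%) and 3485 (30.5%). In 6724 genes (58.8%) the values of the groups did not overlap. All p-values here measure the spread between these cultures. The median difference, IMA minus SA, was -0.09 for mRNA genes and -0.10 for all 13195 features tested. After upper-quartile scaling the median of all features was 0.013, a shift of more than 0.1, and small differences are best read against it. Differences of genes near 0 in one group are limited by the 1 added before taking the log2.

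The gene lists split into 3 patterns. The muscle lists together had 81 of 88 members tested called higher in IMA (92.0%) and 0 called higher in SA, with a median difference of 4.42. Of the 88, 60 had a mean under 1 FPKM in SA and entered the test by their level in IMA, so this share depends on the filter. With no filter on low values 81 were called as well. By limma, 0 of the 88 were higher in SA at an unadjusted p under 0.05. For those 60 the filter left no room for a higher mean in SA, so this count is not compared with all genes. The cell cycle lists had 28 of 93 members called higher in SA (30.1%) and 4 higher in IMA (4.30%), with a median of -0.82, and upper-quartile scaling left 16 of the 28 calls in number. The lipid and matrix lists held members that differed strongly in both directions. Of 92 lipid genes 13 were called higher in IMA (14.1%) and 5 higher in SA (5.43%), with a median of 0.02. Of 103 matrix genes 20 were called higher in IMA (19.4%) and 19 higher in SA (18.4%), with a median of 0.05 that turned to -0.03 under quantile normalization. These shares are to be read against 8.00% and 5.11% of all mRNA genes.

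**Figure D2:**
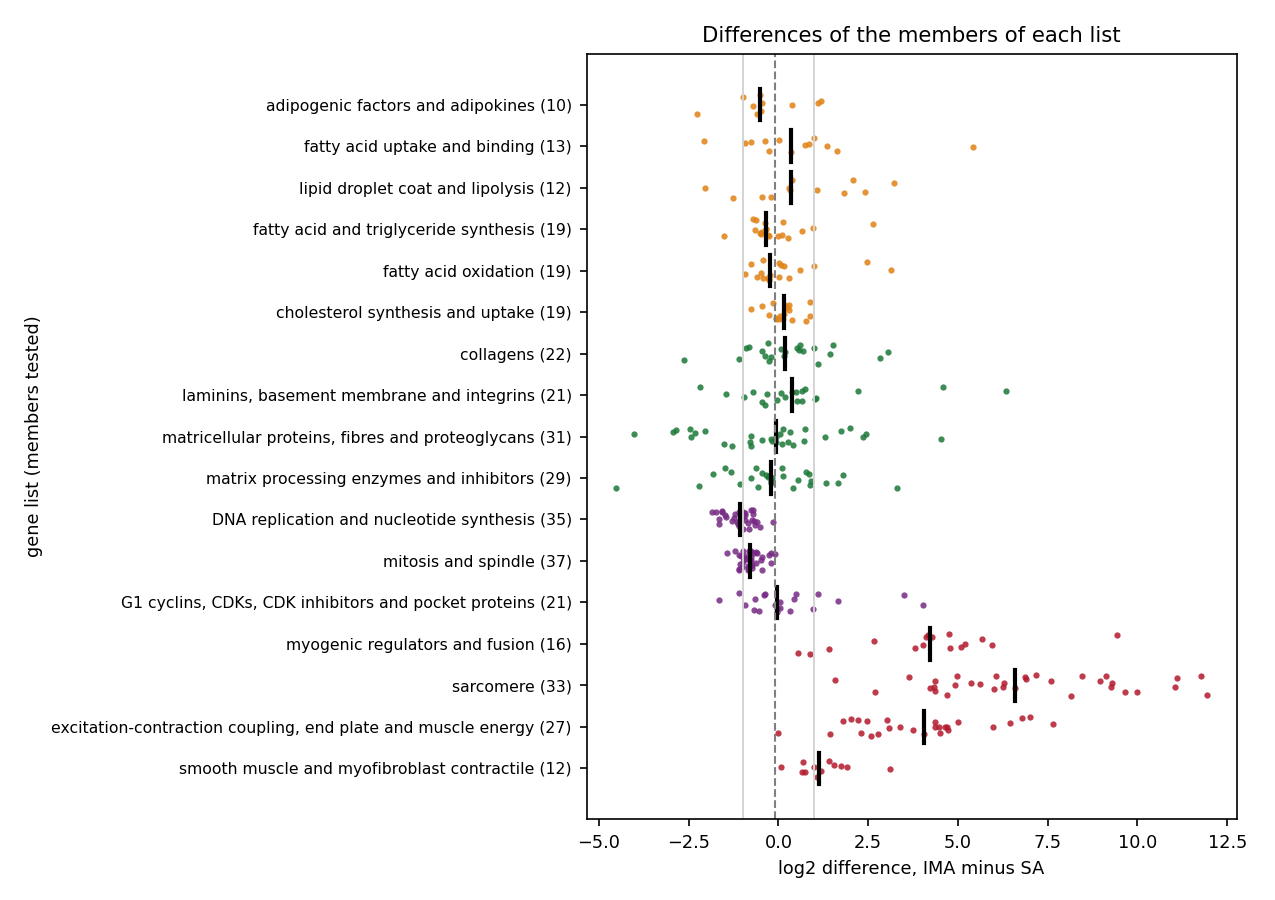
Log2 difference, IMA minus SA, of each member tested (points) in 17 gene lists (rows, number of members tested in brackets), coloured by domain, with the list median as a black bar. The dashed line is the median of all mRNA genes (-0.09) and the pale lines mark -1 and 1. Sarcomere genes reach 11.94, and all members of the replication and mitosis lists lie left of 0.

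With symbols that start with LOC left out, the largest differences in favour of the IMA libraries belonged to genes known from muscle. MYL2, a regulatory light chain of myosin, stood at 5369, 5514, 5028, 5604 and 5588 FPKM in the IMA libraries and 0, 0.933, 0.0830, 0 and 1.36 FPKM in the SA libraries. The difference was 11.94 (SE 0.220, adjusted p = 1.44e-13). MYLPF, the fast-muscle regulatory light chain, had means of 4534 ± 135 FPKM in IMA and 0.343 ± 0.376 FPKM in SA and a difference of 11.76 (SE 0.147, adjusted p = 3.45e-15). TNNC1, the calcium-binding troponin of slow and cardiac muscle, reached 2664 ± 68.9 FPKM against 0.242 ± 0.248 FPKM, a difference of 11.09. The remaining genes of the 6 with the largest differences were ACTC1 (11.04), DES (9.98) and MYL4 (9.64). All 6 were picked among genes whose groups do not overlap. Actins, tropomyosins and myosin light chains have close copies that share reads, so the split between single copies is uncertain.

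In favour of the SA libraries, the 6 genes with the largest differences, again with LOC symbols left out, were of several kinds. TNFRSF11B, which encodes the decoy receptor osteoprotegerin, stood at 0.667, 0.164, 0.243, 0.573 and 0.463 FPKM in the IMA libraries and 92.8, 98.1, 104, 102 and 91.4 FPKM in the SA libraries. The groups were far apart, with a difference of -6.13 (SE 0.0929, adjusted p = 2.16e-14). ACKR4, a scavenging receptor for chemokines, stood at 0.183 ± 0.0581 FPKM in IMA and 41.2 ± 2.59 FPKM in SA, a difference of -5.16. FGL2, a fibrinogen-like protein, differed by -3.90 and the protease ADAMTS15 by -3.78. The other 2 of the 6, MMP1 and ASPN, belong to the matrix and are given with it.

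The myogenic genes tested were higher in the IMA libraries, while PAX3, under 1 FPKM in mean, was not tested. Of 16 myogenic regulators and fusion genes tested, 14 were called higher in IMA, all 16 passed by adjusted p, and the median difference was 4.22. Of the 16, 11 had a mean under 1 FPKM in SA and passed the filter by their level in IMA, so their direction was set by the filter. MYOG, the factor of terminal muscle differentiation, stood at 717, 692, 768, 727 and 774 FPKM in the IMA libraries and 0, 0, 0, 0 and 0.397 FPKM in the SA libraries. The difference was 9.43 (SE 0.0884, adjusted p = 2.89e-16). MYOD1, which commits cells to muscle, had a mean of 26.1 ± 2.51 FPKM in IMA and was listed at 0 in 4 of 5 SA libraries. PAX7, the satellite cell factor, stood at 10.7, 13.9, 14.9, 13.4 and 13.3 FPKM in the IMA libraries and at 0, 0.00588, 0.0245, 0 and 0.0250 FPKM in the SA libraries. Genes of resting and activated satellite cells and of differentiating muscle were thus present side by side in the same libraries. LMOD3, which nucleates thin filaments, reached 61.7 ± 4.73 FPKM in IMA and was listed at 0 in 4 of 5 SA libraries.

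All 33 sarcomere genes tested were called higher in IMA, with a median difference of 6.58. Of these, 28 had a mean under 1 FPKM in SA and passed the filter by their level in IMA, while MYBPC2 and MYOZ1, low in both groups, were not tested. The list summed to 23244, 24077, 22872, 24500.2 and 24522 FPKM in IMA1 to IMA5 and to 20.5, 21.7, 18.6, 20.2 and 22.9 FPKM in SA1 to SA5. ACTA1, skeletal actin, had a mean of 671 ± 41.1 FPKM in IMA and a difference of 9.30. TNNT3, fast troponin T, was the marker with the most signal in SA, at 6.93 ± 0.940 FPKM against 947 ± 52.7 FPKM in IMA. Among 27 genes of excitation-contraction coupling, the end plate and muscle energy supply, 26 were called higher in IMA, and the median difference was 4.05. Of the 27, 20 had a mean under 1 FPKM in SA and likewise passed the filter by their level in IMA. CKM stood at 179.7, 195, 198, 205 and 214 FPKM in the IMA libraries and was listed at 0 in all 5 SA libraries. PGAM2, the muscle phosphoglycerate mutase, stood at 154 ± 5.20 FPKM in IMA and 0.224 ± 0.206 FPKM in SA. CASQ2, a calcium store protein of the sarcoplasmic reticulum, was the most abundant of the list in IMA, at 203 ± 3.97 FPKM in IMA and 2.23 ± 0.203 FPKM in SA. The exception was PHKA1, a subunit of phosphorylase kinase named after its values were seen, whose groups did not differ (-0.02).

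The smooth muscle and myofibroblast list moved less. Of its 12 members tested, 8 were called higher in IMA (8.00% of all mRNA genes), and the median difference was 1.12. TPM2, a tropomyosin, stood at 656 ± 30.0 FPKM in IMA and 75.0 ± 4.25 FPKM in SA. MYL9, the smooth muscle regulatory light chain, differed by 1.90 (SE 0.127, adjusted p = 4.05e-08). TPM1 had the highest mean over the 10 libraries, with 1548 ± 100.1 FPKM in IMA and 532 ± 25.4 FPKM in SA. Of the 12 tested, 1 had a mean under 1 FPKM in SA, against 28 of 33 sarcomere genes, and MYH11 was too low to be tested.

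The myogenic, sarcomere and coupling lists together held 6.39%, 6.72%, 6.38%, 6.79% and 6.80% of the mRNA FPKM in IMA1 to IMA5. In SA1 to SA5 they held 0.0205%, 0.0195%, 0.0183%, 0.0213% and 0.0220%. At day 0 the share was 1.93%, 1.94%, 2.21%, 2.11% and 2.26% in IMPA1 to IMPA5 and 0.0238% to 0.0323% in the SPA libraries. The muscle share of the cells from muscle was thus already present before induction and was larger at day 3. The gap between depots was compared between the days as (IMA minus SA) minus (IMPA minus SPA), fitted by limma over all 20 libraries with the same thresholds. In this comparison 326 mRNA genes (2.85%) were positive and 390 (3.41%) negative. Of 33 sarcomere genes 30 were positive, among them TNNT3 at 2.85 (SE 0.108, adjusted p = 5.26e-14) and MYL2 at 2.56. SPA1 stood apart at day 0, with a sarcomere sum of 56.0 FPKM against at most 26.6 FPKM in the other SPA libraries, and without SPA1, a setting chosen after seeing the data, 29 of the 33 were positive and the MYL2 term was 1.94. Of the 27 coupling genes 15 were positive, and of the 16 myogenic genes 4. Of the 12 smooth muscle genes 1 was positive and 1 negative. MYOG was not past the thresholds, with 649 ± 66.9 FPKM in IMPA at day 0 and 736 ± 35.0 FPKM in IMA at day 3, a term of 0.23 (adjusted p = 0.271). MYOD1 stood at 43.2 ± 1.84 FPKM in IMPA and 26.1 ± 2.51 FPKM in IMA. Sarcomere genes thus differed more between the depots at day 3 than at day 0, while the level of the MYOG mRNA was similar.

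Lipid genes differed by member, with FABP3, CD36 and CIDEA among those higher in IMA and PLIN2, CIDEC and EBF1 among those higher in SA. Of 13 uptake and binding genes tested, 3 were called higher in IMA and 1 higher in SA. Among all mRNA genes 8.00% and 5.11% were called. The median difference of the list was 0.35. By adjusted p alone 7 and 5 passed (28.9% and 42.7% of all mRNA genes). FABP3, the fatty acid carrier of heart and skeletal muscle, stood at 101, 103, 119.6, 109 and 115 FPKM in the IMA libraries and 1.68, 1.05, 2.03, 1.41 and 1.77 FPKM in the SA libraries. The groups did not overlap, and the difference of 5.43 (SE 0.0935, adjusted p = 7.05e-14) was the largest of the lipid genes. CD36, the fatty acid translocase of the cell membrane, stood at 4.48, 5.45, 4.91, 4.97 and 4.75 FPKM in the IMA libraries and 1.44, 0.776, 1.15, 0.518 and 0.790 FPKM in the SA libraries. Its difference was 1.63 (SE 0.113, adjusted p = 5.91e-08). CD36 was under 0.5 FPKM in all day-0 libraries, with means of 0.252 FPKM in IMPA and 0.0679 FPKM in SPA. On the log2(FPKM + 1) scale the gap between the depots was larger at day 3 (term 1.41, SE 0.139). Both day-0 groups lay under the 1 added before taking the log2, which limits the gap at day 0 and so affects the term. CAV1, the coat protein of caveolae and the most abundant of the list in the mean of the 10 libraries, was 93.1 ± 8.41 FPKM in IMA and 35.7 ± 1.00 FPKM in SA. ACSL5, an acyl-CoA synthetase, went the other way, with 7.46 ± 1.28 FPKM in IMA and 34.3 ± 2.59 FPKM in SA (-2.07).

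The droplet genes were divided by family member. Of 12 members tested, 5 were called higher in IMA and 2 higher in SA (8.00% and 5.11% of all mRNA genes). The median difference was 0.34. CIDEA, a droplet protein of brown and beige fat cells, stood at 59.9, 44.3, 35.8, 38.5 and 43.6 FPKM in the IMA libraries and 14.3, 16.7, 4.96, 4.49 and 3.55 FPKM in the SA libraries. The difference was 2.42 (SE 0.352, adjusted p = 5.62e-05), and in SA1 and SA2 the level was more than in the other SA libraries, though still under every IMA library. CIDEC, the related protein of white fat cells, showed the opposite pattern at 0.325, 0.214, 0.394, 0.586 and 0.0702 FPKM in the IMA libraries and 4.64, 4.25, 4.41, 4.16 and 4.27 FPKM in the SA libraries. Its difference was -2.03 (SE 0.0953, adjusted p = 1.29e-09). FITM1, a droplet-forming protein of muscle, reached 9.87 ± 0.371 FPKM in IMA and 0.182 ± 0.115 FPKM in SA (3.21). The other 3 members called higher in IMA, named after their values were seen, were the monoglyceride lipase MGLL (2.08), the lipase inhibitor G0S2 (1.81) and the lipase co-activator ABHD5 (1.09). PLIN2, the perilipin found on droplets of most cells and the most abundant of the list, stood at 188, 178, 128, 170.3 and 165 FPKM in the IMA libraries and 380.4, 403, 419.7, 401 and 377 FPKM in the SA libraries. It was higher in all 5 SA libraries, with a difference of -1.26 (SE 0.0868, adjusted p = 5.42e-08). At day 0 PLIN2 was 49.8 ± 12.5 FPKM in IMPA and 257 ± 5.58 FPKM in SPA, a log2 difference of -2.38. On the log2 scale, though not in FPKM, the gap was thus smaller at day 3 (term 1.11, adjusted p = 2.19e-05 by limma).

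**Figure D3:**
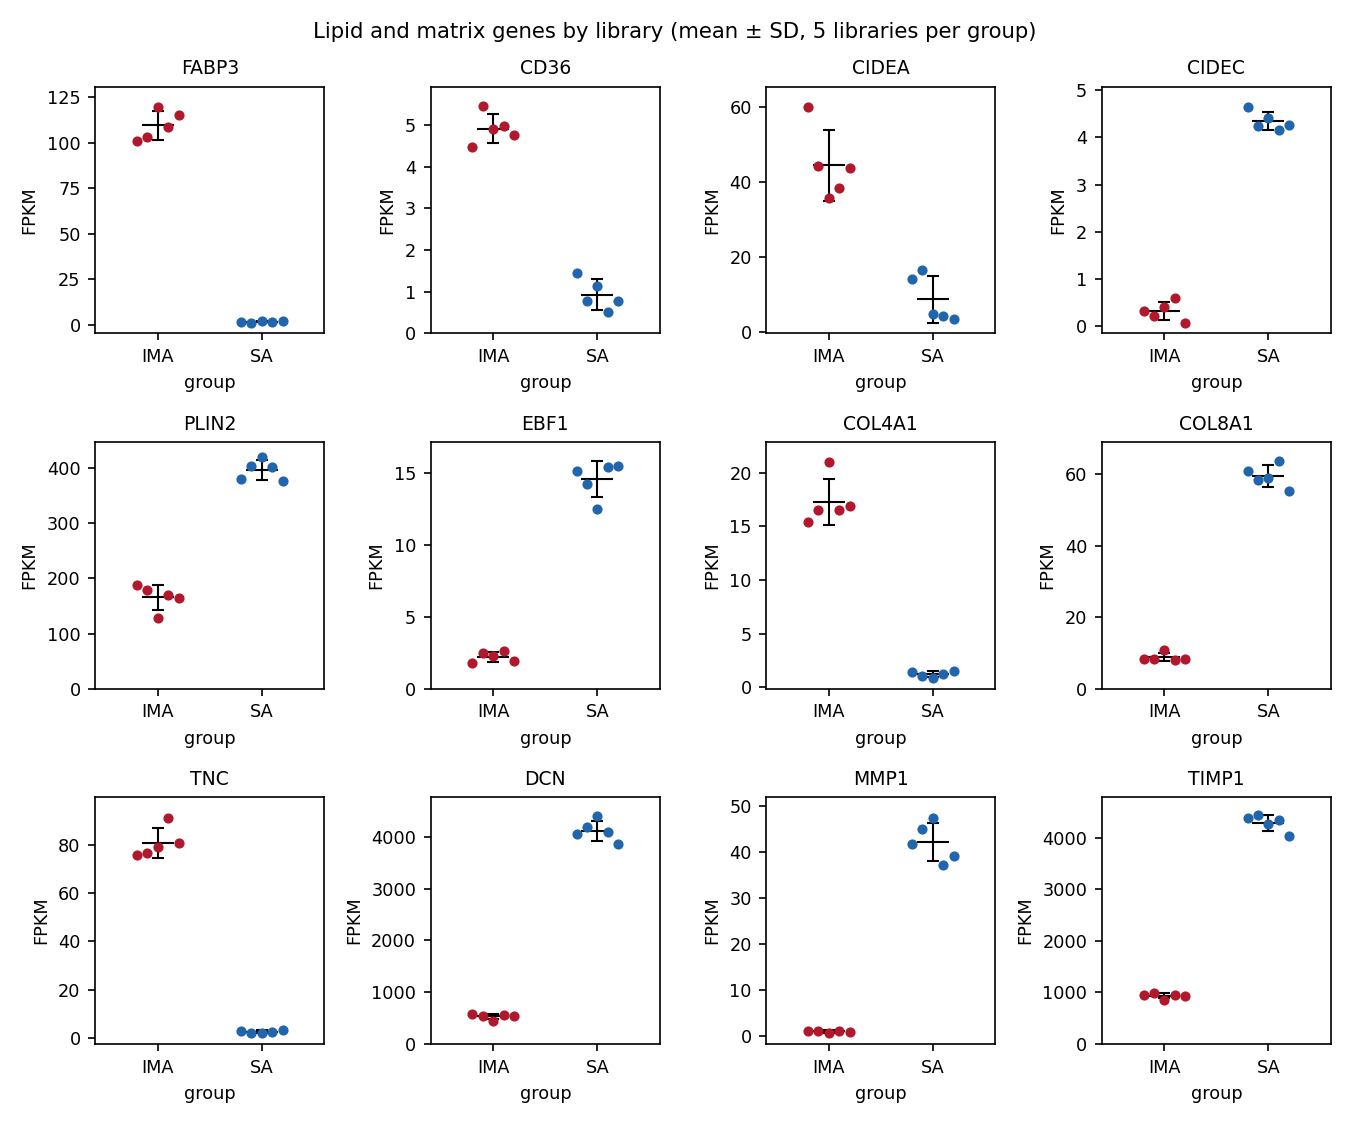
FPKM of 6 lipid and 6 matrix genes in the 5 IMA and 5 SA libraries (points, one per library), each panel with its own axis, with the mean and SD as bars. FABP3, CD36, CIDEA, COL4A1 and TNC are higher in every IMA library, and CIDEC, PLIN2, EBF1, COL8A1, DCN, MMP1 and TIMP1 in every SA library.

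Of 10 adipogenic factors and adipokines tested, 2 were called higher in IMA and 1 higher in SA (8.00% and 5.11% of all mRNA genes). The median difference was -0.51. By adjusted p alone 3 were higher in IMA and 7 in SA (28.9% and 42.7% of all mRNA genes). EBF1, an early factor of the fat lineage, stood at 1.80, 2.50, 2.25, 2.59 and 1.94 FPKM in the IMA libraries and 15.2, 14.3, 12.5, 15.5 and 15.5 FPKM in the SA libraries. The difference was -2.28 (SE 0.0819, adjusted p = 9.55e-11). CEBPD, induced at the start of adipogenesis and the most abundant of the list, was 158 ± 14.1 FPKM in IMA and 313 ± 22.3 FPKM in SA, just short of a call at -0.98. KLF5 and KLF9, factors that act with the C/EBP proteins, were higher in IMA, by 1.20 and 1.09. CEBPA was also higher in IMA, by 0.39, so the list was divided.

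Of 19 fatty acid and triglyceride synthesis genes tested, only FADS2 was called higher in IMA and only ME1 higher in SA. Among all mRNA genes 8.00% and 5.11% were called. By adjusted p alone 5 and 12 passed (28.9% and 42.7% of all mRNA genes), and the median was -0.34. After upper-quartile scaling 2 were called higher in IMA. FADS2, the delta-6 desaturase, stood at 17.7, 15.6, 14.7, 16.1 and 16.2 FPKM in the IMA libraries and 1.57, 1.76, 1.88, 1.87 and 1.66 FPKM in the SA libraries. ME1, the malic enzyme that supplies NADPH, stood at 11.1 ± 0.387 FPKM in IMA and 33.3 ± 1.20 FPKM in SA, a difference of -1.51 (SE 0.0393, adjusted p = 3.98e-12). ACLY, which makes cytosolic acetyl-CoA and had the highest mean over the 10 libraries, had overlapping groups at 31.5 FPKM and 26.2 FPKM. Of 19 fatty acid oxidation genes, 2 were called higher in IMA and 0 higher in SA by limma, although 6 were higher in IMA and 10 in SA by adjusted p alone and 10 higher in SA at an unadjusted p under 0.05. Among all mRNA genes these shares were 28.9%, 42.7% and 44.0%. The median was -0.25. After upper-quartile scaling 9 were higher in IMA and 7 in SA by adjusted p alone, against 36.6% and 30.5% of all mRNA genes. The 2 called were CPT1B, the muscle form of the mitochondrial carnitine transferase, at 5.81 ± 0.429 FPKM against 0.225 ± 0.108 FPKM, and UCP2, a mitochondrial carrier, at 8.10 ± 1.45 FPKM against 0.0323 ± 0.0409 FPKM. Both stood further apart at day 3 than at day 0 (terms 1.82 and 2.25). HADHA, a subunit of the trifunctional protein and the most abundant, was higher in SA, 136 ± 5.57 FPKM against 101 ± 2.69 FPKM (-0.42). Of 19 cholesterol genes 0 were called in either direction by limma, with 9 higher in IMA and 4 higher in SA at an unadjusted p under 0.05 (29.8% and 44.0% of all mRNA genes) and a median of 0.17. FDPS, the most abundant in the mean of the 10 libraries, had overlapping groups at 27.6 FPKM and 27.4 FPKM, and the sign of its difference of 0.01 changed without SA1 (-0.03), SA2 (-0.0032) or IMA5 (-0.0058). Of the lipid genes called higher in IMA, FABP3, CPT1B and FITM1 are known from skeletal muscle, and the part of the muscle genes in these differences was not tested.

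Matrix genes differed between the depots in both directions. Of 22 collagens tested, 5 were called higher in IMA and 2 higher in SA (8.00% and 5.11% of all mRNA genes). The median was 0.18. By adjusted p alone 10 and 7 passed (28.9% and 42.7% of all mRNA genes). COL4A1, a chain of basement membrane collagen, stood at 15.4, 16.6, 21.0, 16.5 and 16.8 FPKM in the IMA libraries and 1.42, 1.02, 0.863, 1.24 and 1.52 FPKM in the SA libraries. The difference was 3.05 (SE 0.0966, adjusted p = 2.75e-11), with COL4A2, its partner chain, named after its values were seen, at 1.53. COL5A3, a minor fibril collagen, was 15.1 ± 1.11 FPKM in IMA and 1.27 ± 0.125 FPKM in SA (2.83). COL11A1 (1.43) and COL14A1 (1.09) completed the 5, also named after their values were seen. COL8A1, a network collagen, stood at 8.35, 8.45, 10.9, 8.08 and 8.36 FPKM in the IMA libraries and 60.8, 58.4, 58.8, 63.8 and 55.3 FPKM in the SA libraries. It was higher in every SA library, with a difference of -2.63 (SE 0.0719, adjusted p = 6.44e-12). COL27A1 was the other collagen called higher in SA (-1.09). COL3A1, the most abundant collagen, stood at 5242 ± 248 FPKM in IMA and 4975 ± 138 FPKM in SA. Its result depended on the scaling, with 0.07 (adjusted p = 0.176) as deposited, 0.20 (adjusted p = 0.00377) after upper-quartile scaling and -0.13 (adjusted p = 3.86e-05) under quantile normalization. COL1A1 overlapped between the groups, at 188, 261, 258, 233 and 227 FPKM in the IMA libraries and 413, 267, 197, 372 and 427 FPKM in the SA libraries. Its adjusted p of 0.0443 (-0.47) went above 0.05 without IMA1 (0.105), IMA3 (0.0512), IMA4 (0.0695), IMA5 (0.0741), SA1 (0.105), SA4 (0.0924) or SA5 (0.108).

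Of 21 laminins, basement membrane proteins and integrins, 5 were called higher in IMA and 2 higher in SA. Among all mRNA genes 8.00% and 5.11% were called. The median of the list was 0.36. ITGA7, the laminin-binding integrin chain of muscle fibres, stood at 83.5, 76.9, 72.5, 89.5 and 90.5 FPKM in the IMA libraries and 0.0210, 0, 0.00709, 0.00624 and 0.0644 FPKM in the SA libraries. ITGA4, which binds fibronectin and VCAM1, reached 32.6 ± 2.71 FPKM in IMA and 0.400 ± 0.0699 FPKM in SA. Their differences were 6.35 and 4.58, the largest of the matrix genes in favour of IMA. The other 3, named after their values were seen, were ITGA8 (2.22), LAMB3 (1.04) and LAMA2 (1.01), the laminin chain of muscle basement membrane. Under quantile normalization LAMB3 (0.90) and LAMA2 (0.98) fell short of a call. LAMA3, a laminin chain of epithelia, was higher in SA, 4.03 ± 0.254 FPKM against 0.102 ± 0.0230 FPKM, and so was ITGA1, a collagen-binding integrin chain (-1.45). ITGB1, the shared beta chain and most abundant member, overlapped between the groups at 371 and 326 FPKM.

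Among 31 matricellular proteins, fibres and proteoglycans, 6 were called higher in IMA and 9 higher in SA (8.00% and 5.11% of all mRNA genes). The median of -0.07 turned to 0.02 after upper-quartile scaling. DCN, the small proteoglycan decorin that binds collagen fibrils, had the highest mean of them over the 10 libraries and stood at 588, 546, 449, 550.2 and 542 FPKM in the IMA libraries and 4053, 4186, 4398, 4094 and 3869 FPKM in the SA libraries. The groups did not overlap and differed by -2.95 (SE 0.0666, adjusted p = 1.02e-12). ASPN, a related proteoglycan, was 4.83 ± 0.838 FPKM in IMA and 93.5 ± 8.35 FPKM in SA (-4.02). TNC, tenascin C of developing and healing tissue, went the other way at 75.9, 76.7, 79.3, 91.3 and 80.8 FPKM in the IMA libraries and 2.99, 2.20, 1.98, 2.55 and 3.19 FPKM in the SA libraries. Its difference was 4.52 (SE 0.0913, adjusted p = 3.47e-13). MFAP4, a protein of elastic fibres, was also higher in IMA, 99.3 ± 10.5 FPKM against 17.4 ± 0.925 FPKM.

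Matrix processing enzymes and inhibitors differed in both directions. Of 29 tested, 4 were called higher in IMA and 6 higher in SA (8.00% and 5.11% of all mRNA genes). The median was -0.22. By adjusted p alone 10 and 17 passed (28.9% and 42.7% of all mRNA genes). After upper-quartile scaling the calls were 6 and 5, with a median of -0.09. By adjusted p alone 12 and 12 then passed (36.6% and 30.5% of all mRNA genes). TIMP1, an inhibitor of matrix metalloproteinases and the most abundant, stood at 949, 992, 852, 942 and 929 FPKM in the IMA libraries and 4383, 4431, 4272, 4335 and 4034 FPKM in the SA libraries. Every SA library was higher, and the difference was -2.20 (SE 0.0477, adjusted p = 6.72e-13). MMP1, the interstitial collagenase, stood at 1.10, 0.939, 0.513, 1.04 and 0.822 FPKM in the IMA libraries and 41.7, 44.9, 47.5, 37.3 and 39.2 FPKM in the SA libraries. Its difference was -4.52 at day 3 and -6.27 at day 0, so the gap was smaller at day 3 (term 1.74, SE 0.116). ADAMTS1, a protease that cuts proteoglycans, was higher in IMA at 16.0 ± 0.768 FPKM against 0.728 ± 0.275 FPKM. Its gap had also been larger at day 0, when IMPA stood at 43.9 ± 2.03 FPKM (term -1.52). PLAU, the urokinase, differed by 1.81 (SE 0.0576, adjusted p = 2.86e-11). MMP11 (1.66) and LOXL4 (1.32) were the other 2 called higher in IMA, named after their values were seen. Among stromal markers, DCN, LUM and PDGFRA were called higher in SA, and DCN and LUM are themselves members of the matrix lists. PDGFRB (-0.76), COL1A1 (-0.47) and THY1 (-0.26) differed by less. The part of the stromal markers was not tested.

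Replication and mitosis genes were lower in the IMA libraries at day 3, and the G1 list was divided. Of 35 DNA replication and nucleotide synthesis genes tested, 18 were called higher in SA and 0 higher in IMA by limma. Among all mRNA genes 5.11% and 8.00% were called. By adjusted p alone 34 were higher in SA (42.7% of all mRNA genes). At an unadjusted p under 0.05, 0 were higher in IMA (29.8% of all mRNA genes). The median difference was -1.06. RRM2, a subunit of ribonucleotide reductase, stood at 20.5, 18.4, 28.2, 21.4 and 20.4 FPKM in the IMA libraries and 85.2, 80.4, 75.3, 75.3 and 85.6 FPKM in the SA libraries. Every SA library was above every IMA library, with a difference of -1.85 (SE 0.0921, adjusted p = 2.37e-09). TK1, the thymidine kinase of S phase, stood at 5.76 ± 0.556 FPKM in IMA and 21.5 ± 1.54 FPKM in SA (-1.74). DUT, which removes dUTP and was the most abundant, differed by -0.70. In 34 of the 35 the groups did not overlap, against 58.8% of all mRNA genes.

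Of 37 mitosis and spindle genes, 8 were called higher in SA and 0 higher in IMA by limma (5.11% and 8.00% of all mRNA genes). By adjusted p alone 34 were higher in SA (42.7% of all mRNA genes). At an unadjusted p under 0.05, 0 were higher in IMA (29.8% of all mRNA genes). The median difference was -0.79. After upper-quartile scaling 2 were called higher in SA, against 468 of all 11436 mRNA genes. By adjusted p alone 34 were then higher in SA (30.5% of all mRNA genes). TOP2A, the topoisomerase of dividing cells and the most abundant, stood at 32.0, 32.1, 35.8, 30.7 and 29.2 FPKM in the IMA libraries and 58.4, 60.0, 58.0, 52.0 and 57.6 FPKM in the SA libraries. The groups did not overlap, with a difference of -0.82 (SE 0.0556, adjusted p = 4.70e-08). SMC2, a condensin subunit, was 8.52 ± 0.997 FPKM in IMA and 24.4 ± 1.26 FPKM in SA. NUF2, of the kinetochore, differed by -1.21. The medians of both lists were negative under each scaling tried, from -0.95 to -1.06 for replication and from -0.67 to -0.79 for mitosis.

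The G1 list had a median of -0.03 that turned to 0.07 after upper-quartile scaling. Of 21 members tested, 4 were called higher in IMA and 2 higher in SA (8.00% and 5.11% of all mRNA genes). After that scaling 5 and 1 were called. CDKN1C, the inhibitor p57 that holds cells out of the cycle, stood at 498, 429, 438, 469.9 and 462 FPKM in the IMA libraries and 26.6, 26.9, 27.7, 29.4 and 25.1 FPKM in the SA libraries. The groups did not overlap, and the difference was 4.03 (SE 0.0507, adjusted p = 3.63e-15). CDKN2B, the inhibitor p15, reached 26.4 ± 2.59 FPKM in IMA and 1.44 ± 0.310 FPKM in SA (3.50). CDK6 (1.65) and RB1 (1.10), the retinoblastoma protein, were also called higher in IMA and were named after their values were seen. CCNE2, a cyclin of S phase entry, was 1.74 ± 0.351 FPKM in IMA and 7.68 ± 1.11 FPKM in SA. E2F1, a factor that drives replication genes, differed by -1.09 (SE 0.0735, adjusted p = 4.72e-08) and fell short of a call after upper-quartile scaling (-0.99). The inhibitors did not all go 1 way, since CDKN2C, named after its values were seen, was lower in IMA (-0.36) and without overlap.

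Before induction the order of the depots was the opposite. At day 0 the median difference, IMPA minus SPA, was 0.50 for the replication list and 0.98 for the mitosis list. RRM2 stood at 32.2, 35.8, 33.6, 31.5 and 35.5 FPKM in IMPA1 to IMPA5 and 11.1, 10.9, 10.5, 10.2 and 10.9 FPKM in SPA1 to SPA5. TOP2A stood at 30.9, 36.8, 28.7, 27.5 and 31.2 FPKM in IMPA and 10.3, 10.7, 9.82, 11.8 and 11.9 FPKM in SPA. In both genes the cells from muscle were higher at day 0 and the cells from subcutaneous fat at day 3. The term that compares the days was -3.42 for RRM2 (SE 0.107, adjusted p = 5.35e-15) and -2.24 for TOP2A (SE 0.0987, adjusted p = 3.44e-13). It was negative and past the thresholds in 31 of 35 replication genes, 36 of 37 mitosis genes and 4 of 21 G1 genes, against 3.41% of all mRNA genes. Summed over the mitosis list, FPKM was 430.0, 458, 411, 370.4 and 444 in IMPA1 to IMPA5 and 383, 377, 416, 369 and 368 in IMA1 to IMA5. In the subcutaneous cells the same sum was 186, 175, 167, 191 and 194 in SPA1 to SPA5 and 711, 711, 703, 649 and 718 in SA1 to SA5. The replication list summed to 481, 489, 478, 454 and 494 in IMPA and 329, 312, 382, 332 and 334 in IMA, without overlap. Its sum was 352, 340.2, 330.4, 331 and 332 in SPA and 779.6, 798, 771, 735 and 805 in SA. Both sums were thus higher in SA than in SPA libraries, and the replication sum was also lower in IMA than in IMPA libraries. CDKN1C was higher in the cells from muscle on both days, 339.7 ± 32.7 FPKM in IMPA against 39.2 ± 2.17 FPKM in SPA at day 0.

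**Figure D4:**
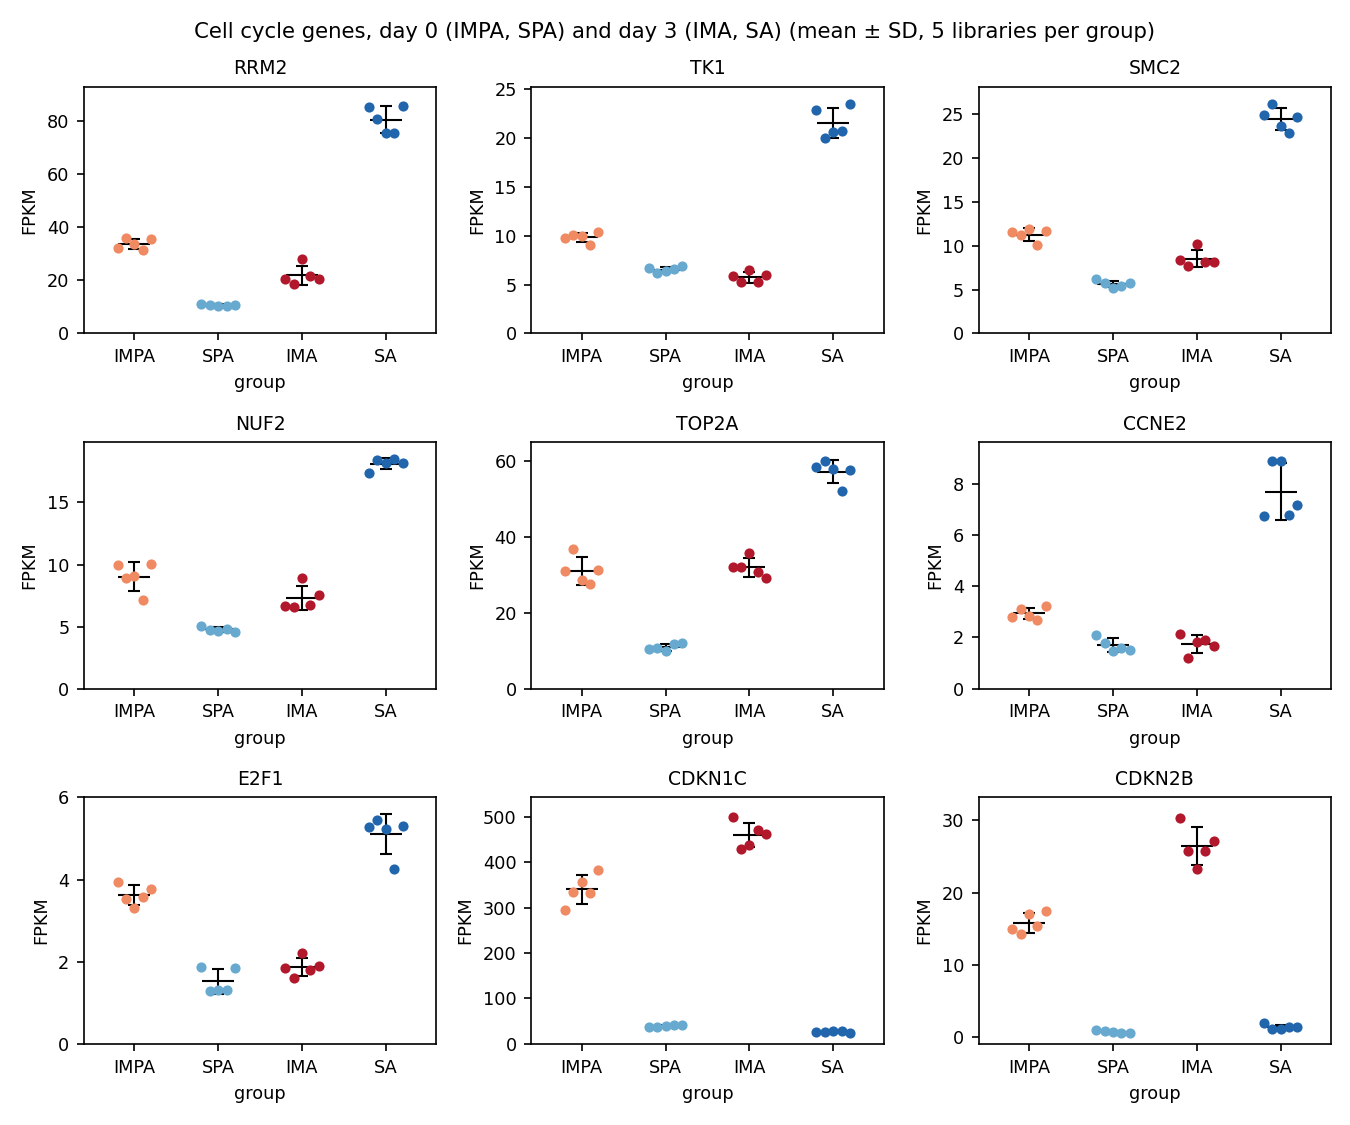
FPKM of 9 cell cycle genes in the 20 libraries (points, 5 per group) at day 0 (IMPA, SPA) and day 3 (IMA, SA), each panel with its own axis starting at or just under 0, with the mean and SD as bars. RRM2, TK1, SMC2, NUF2, TOP2A, CCNE2 and E2F1 are highest in all SA libraries, while CDKN1C and CDKN2B are high in both groups from muscle.

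Positional transcription factors, which record where in the body a cell comes from, also differed. Of 52 factors listed, 19 were tested. Of these, 4 were called higher in IMA and 3 higher in SA (8.00% and 5.11% of all mRNA genes). The median of 0.07 turned to -0.08 under quantile normalization, which left 2 called higher in IMA. ZIC1, a zinc finger factor of the dorsal body axis, was 3.19 ± 0.217 FPKM in IMA and 0.520 ± 0.0516 FPKM in SA. HOXA10 (1.15) and HOXA9 (1.14) were also called higher in IMA and were named after their values were seen. They fell short of a call under quantile normalization (0.88 and 0.93). TBX15, a factor of subcutaneous fat depots and the most abundant, stood at 14.7, 15.6, 15.6, 16.3 and 17.4 FPKM in the IMA libraries and 45.7, 42.9, 44.4, 45.9 and 43.8 FPKM in the SA libraries. The groups did not overlap, with a difference of -1.43 (SE 0.0457, adjusted p = 2.97e-11). TBX3 (-1.64) and SHOX2 (-1.47) were the other 2 called higher in SA.

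A list of 9 genes was taken from those that the study names, FABP3 and CD36 among them, and does not hold all of them. Of these, 7 were tested, 5 were called higher in IMA and 0 higher in SA by limma, with 1 higher in SA at an unadjusted p under 0.05. Most of them were named for results on these libraries, so their count is no independent evidence. TGFB2, a growth factor that acts on fibroblasts and muscle cells, stood at 11.1, 13.5, 14.5, 13.1 and 13.3 FPKM in the IMA libraries and 1.08, 0.736, 0.833, 0.677 and 0.627 FPKM in the SA libraries. FGF11, an intracellular member of the fibroblast growth factor family, was 17.3 ± 3.83 FPKM in IMA and 2.14 ± 0.222 FPKM in SA (2.52). SMAD1, a signal carrier of bone morphogenetic proteins, differed by 1.03, and UXT by 0.32. FGFR2, a fibroblast growth factor receptor, was the one higher in SA, 2.32 ± 0.159 FPKM against 1.29 ± 0.108 FPKM (-0.54). FOXO6 and DLK1 were below the filter of 1 FPKM. FOXO6 stood at 0.979, 1.68, 1.82, 1.63 and 1.73 FPKM in the IMA libraries and was listed at 0 in 4 of 5 SA libraries. DLK1, the preadipocyte factor, stayed under 0.5 FPKM in all 10.

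Long non-coding RNAs also differed between the depots in both directions. Of 1759 transcripts that averaged 1 FPKM or more, 118 (6.71%) were called higher in IMA and 87 (4.95%) higher in SA, and the median difference was -0.14. Of these calls 57.6% were higher in IMA, against 45.5% after quantile normalization (105 higher in IMA and 126 higher in SA). With 0.1 instead of 1 added before taking the log2, 47.2% were higher in IMA (150 and 168). The balance of directions thus depends on the scaling and on the value added. By type, 32 of 364 annotated lncRNAs were higher in IMA and 16 higher in SA. Intronic transcripts, the largest type with 1123 tested, gave 60 and 57. Intergenic transcripts gave 15 and 7 of 115, antisense transcripts 7 and 5 of 46, and annotated miscellaneous RNAs 4 and 2 of 111. The gap between the depots changed between the days in 41 lncRNAs in the positive direction (2.33%) and 64 in the negative direction (3.64%). With 0.1 added instead of 1 these counts were 66 and 174.

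The 4 lncRNAs with the largest differences in favour of IMA were newly assembled and intronic. LNC_010768 stood at 132, 137, 171, 118 and 151 FPKM in the IMA libraries and was listed at 0 in all SA libraries. LNC_006269 stood at 26.2, 27.6, 29.9, 22.9 and 26.5 FPKM and was likewise listed at 0 in all SA libraries. The reads behind single transcripts are not in the files, so a value of 0 sets no lower limit. LNC_011106 was 44.6 ± 5.04 FPKM in IMA and 0.0582 ± 0.0646 FPKM in SA. LNC_003936 was 36.9 ± 14.8 FPKM in IMA, with 62.8 FPKM in IMA5 and at most 33.2 FPKM in the other IMA libraries. In favour of SA, the annotated XR_001295810.1 stood at 0.309, 0.345, 0.330, 0.366 and 0.249 FPKM in the IMA libraries and 8.16, 7.32, 7.37, 7.39 and 7.87 FPKM in the SA libraries. Its difference was -2.71 (SE 0.0545, adjusted p = 3.34e-13). LNC_001396 was 9.66 ± 1.24 FPKM in SA and under 1 FPKM in every IMA library (-3.25). At day 0 it stood at 0.000744, 0.0226, 0.00412, 0.00324 and 10.95 FPKM in IMPA1 to IMPA5 and 7.35, 6.85, 2.89, 5.88 and 0.00289 FPKM in SPA1 to SPA5, so single libraries of a depot departed from the rest. LNC_002281 differed by -2.84, with 28.8, 63.1, 35.9, 30.3 and 32.4 FPKM in SA1 to SA5, highest in SA2. LNC_010639 stood at 0, 6.75, 0, 0 and 0 FPKM in the IMA libraries and 10.3, 10.4, 9.34, 11.7 and 11.2 FPKM in the SA libraries, and its values at day 0 also mixed 0 with levels near 10 FPKM in both depots.

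The lncRNAs that the study measured by qPCR were picked on these libraries and are no independent evidence. Among the 7 of them, 3 were called higher in IMA and 1, XR_001295810.1, higher in SA, with a median of -0.16. XR_001917557.1 stood at 19.4 ± 1.13 FPKM in IMA and was listed at 0 in 4 of 5 SA libraries. XR_001918647.1 was 14.02 FPKM in IMA and 0.560 FPKM in SA (3.26). XR_001917728.1, an annotated miscellaneous RNA, was abundant in both groups, at 3471, 3566, 3482, 3723 and 3745 FPKM in the IMA libraries and 1173, 1002, 1030.5, 1200.5 and 1176 FPKM in the SA libraries. All IMA libraries were higher, by 1.69 (SE 0.0582, adjusted p = 6.13e-11). XR_001917637.1 (-0.64) and XR_001297263.2 (-0.43) were higher in SA by adjusted p but under 2-fold. LNC_004191 overlapped between the groups at day 3 (-0.16, adjusted p = 0.219, and 0.0434 without IMA3). At day 0 it was 7.87 ± 1.14 FPKM in IMPA and 1.45 ± 0.173 FPKM in SPA, so the gap closed (term -2.0035, adjusted p = 5.95e-10). It was the only one of the 7 past the thresholds of that comparison.

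**Figure D5:**
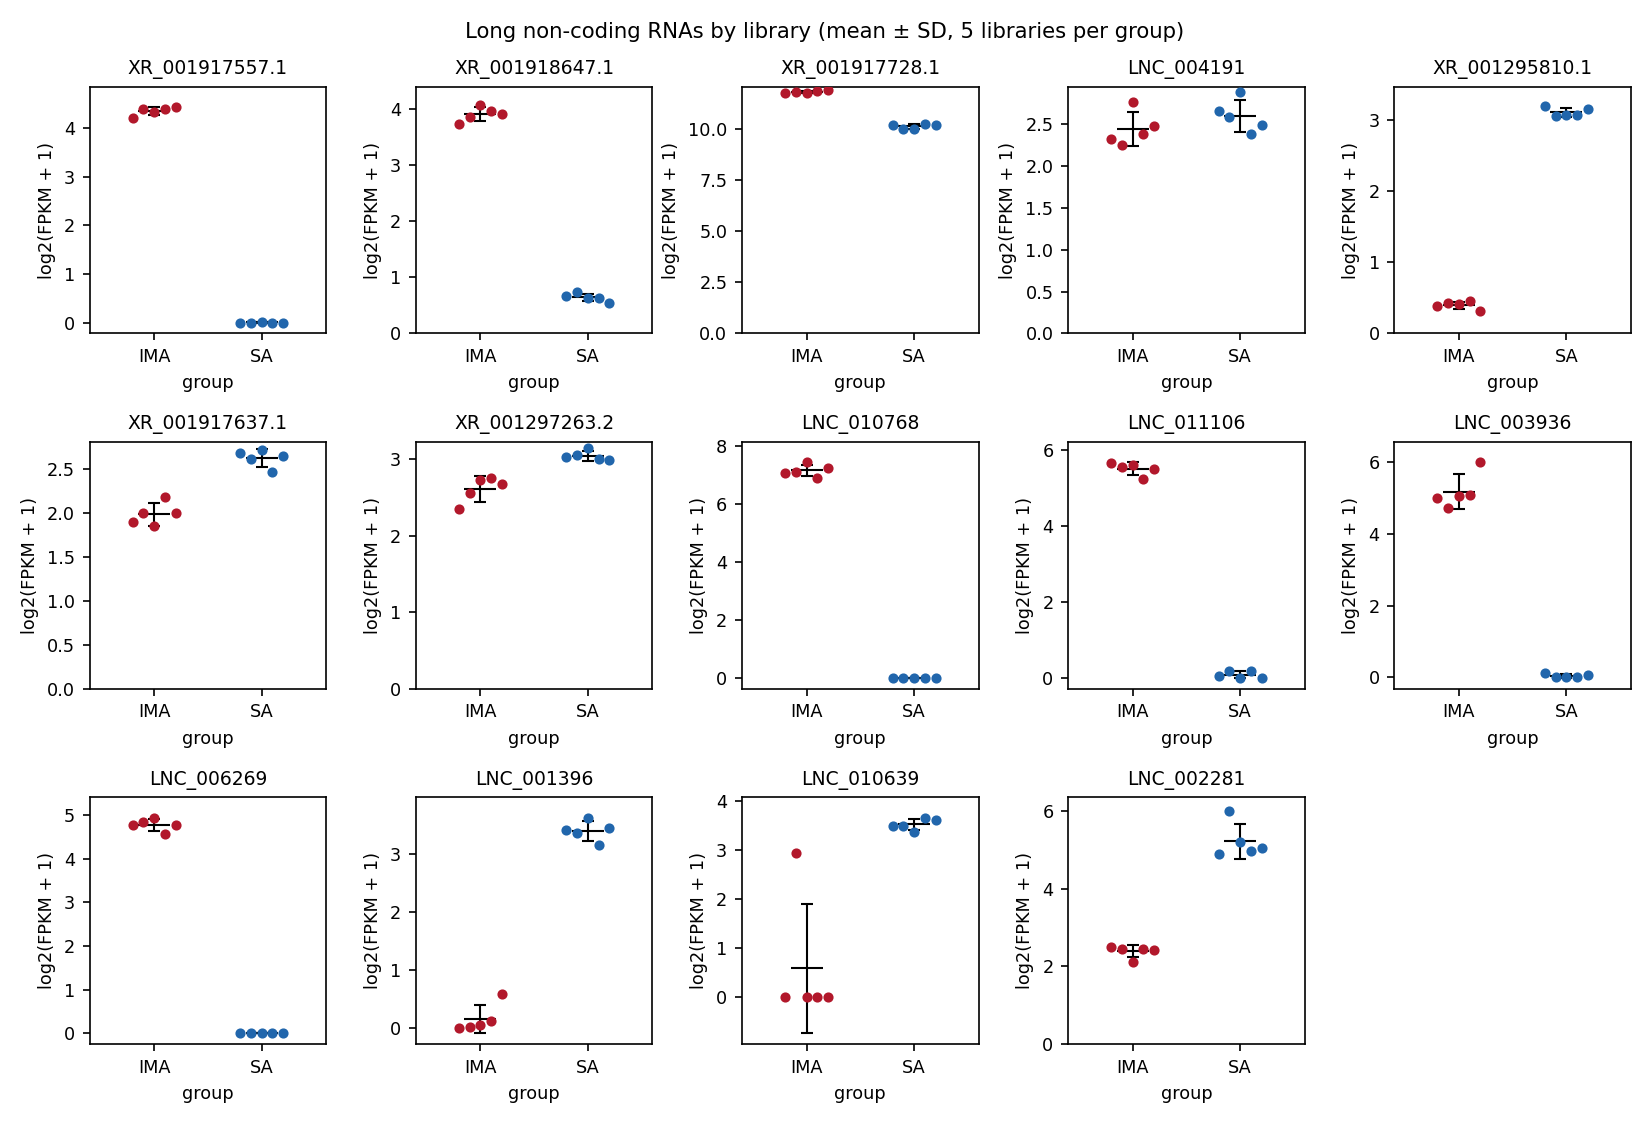
Levels of 14 long non-coding RNAs as log2(FPKM + 1) in the 5 IMA and 5 SA libraries (points, one per library), each panel with its own axis, with the mean and SD as bars. In 13 panels the groups do not overlap, and in LNC_004191 they do.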

How the data were processed

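Strand-specific libraries were aligned by the authors to the goat assembly ARS1 with HISAT2 2.0.4, and the deposited FPKM per transcript came from StringTie 1.3.1, Ballgown and Cuffdiff. Replicates were not pooled. Here mRNA transcripts (43766) were summed by symbol to 20587 genes. The 13612 lncRNAs were used per transcript. Those averaging 1 FPKM or more across the 10 libraries entered tests on log2(FPKM + 1) with limma 3.58.1 in R 4.3.3 (variance trend, Benjamini-Hochberg over 13195 features). A call is an adjusted p under 0.05 and a log2 difference of at least 1. Library measures had exact two-sided permutation tests over 252 divisions. Of 20593 mRNA gene identifiers, 20559 were found in the RefSeq table of the later assembly ARS1.2, used for names only. The steps were tested on simulated data.

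Named are the 6 mRNA genes with the largest differences per direction without overlap, up to 2 called members per list and direction and its most abundant member, 4 lncRNAs per direction, the cell type markers, 9 of the genes the study names, and the lncRNAs it measured by qPCR. Symbols that start with LOC were left out when the 6 genes per direction were picked. Members and lists were chosen with earlier results of these data known. Alternatives were another pseudocount, 2 filters, 3 scalings, a fit of all 4 groups, no variance trend, the replicate block, the most abundant transcript per gene, and leaving out each of the 10 libraries, IMA1 with SA1, or SPA1.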

Additional observations from a re-analysis of the deposited data

Results flagged for a closer look

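In 18 of 226 groups of 5 libraries tested, 1 library lay far from the others. This was measured as its gap to the nearest library over the range of the group, on log2(FPKM + 1) for genes and transcripts. Chance alone gives about 1 in 20 such groups. IMA3 was the far library in ASPN (0.744), CAV1 (0.73), COL4A1 (0.717), COL8A1 (0.853), ITGA1 (0.733), ITGB1 (0.77), LNC_002281 (0.82), COL14A1 (0.788) and ITGA8 (0.73). The share of its range was highest for COL8A1, where IMA3 stood at 10.9 FPKM. IMA1 was far in FOXO6 (0.804) and in the number of genes at 1 FPKM or more (0.719), IMA2 in LNC_010639 (1.0), SA1 in CD68 (0.74) and SA2 in LNC_002281 (0.72). SA3 was far in CXCL12 (0.827) and in the number of genes at 1 FPKM or more (0.717), and SA4 in TOP2A (0.712) and E2F1 (0.834).

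For 41 of 136 named features tested, the difference between the depots changed between day 0 and day 3 by limma's interaction term, given here on the log2 scale. Over all features tested, 2.85% of mRNA genes were positive and 3.41% negative, and 2.33% and 3.64% of lncRNAs. Many named features were picked for a large difference at day 3, which enters the term, so their count is no independent evidence. Among muscle genes the difference grew for MYL2 (2.56), MYLPF (2.38), TNNC1 (2.05), ACTC1 (1.06), DES (1.68), MYL4 (1.67), LMOD3 (1.46), CKM (1.83), PGAM2 (2.30), CASQ2 (2.21), TPM2 (1.01), ACTA1 (1.92) and TNNT3 (2.85), with the terms limited by values near 0 in the subcutaneous cells. The ACTC1 term rested on SPA1, at 3.37 FPKM against at most 0.0868 FPKM in the other SPA libraries, and was 0.65 without it, under the threshold. Among lipid genes and genes the study names the term was positive for CD36 (1.41), UCP2 (2.25), CPT1B (1.82), PLIN2 (1.11) and FGF11 (1.03). For PLIN2 this means a smaller lead of the subcutaneous cells on the log2 scale. Among matrix, secreted and stromal genes it was positive for MMP1 (1.74), COL5A3 (1.17) and THY1 (1.19) and negative for TNFRSF11B (-1.13), FGL2 (-1.05), COL8A1 (-1.12), ADAMTS1 (-1.52) and COL11A1 (-1.76). In cell cycle genes the term was negative for RRM2 (-3.42), TK1 (-2.26), SMC2 (-2.31), NUF2 (-1.999), TOP2A (-2.24), CCNE2 (-2.21) and E2F1 (-1.96). The small heat shock genes CRYAB (1.68), HSPB2 (1.59) and HSPB3 (2.54) had positive terms. Among lncRNAs it was positive for LNC_010768 (1.94), LNC_003936 (2.68) and LNC_006269 (1.74) and negative for LNC_004191 (-2.0035) and LNC_010639 (-3.67).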

How the results depend on the processing

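Of 2855 values of 136 named features under the alternatives, 98.2% kept their direction and their side of the adjusted p threshold. mRNA calls ranged from 884 to 936 higher in IMA and from 576 to 594 higher in SA when 1 library was left out, and lncRNA calls from 108 to 129 and from 86 to 92. After upper-quartile scaling 1012 mRNA genes were called higher in IMA and 468 higher in SA. With a pseudocount of 0.1 these were 1074 and 797. With the replicate number as a block, to pair libraries, 915 and 584 mRNA genes and 118 and 88 lncRNAs were called, but nothing in the values shows that the numbers pair libraries. LncRNA calls higher in IMA came to 183 with a minimum mean of 0.1 FPKM and 180 with no filter, where more transcripts were tested. With a pseudocount of 0.1 instead of 1, lncRNA calls higher in SA came to 168 and lncRNAs whose gap changed between the days to 66 positive and 174 negative. Upper-quartile scaling left 16 cell cycle calls higher in SA. FDPS turned to -0.23 by its most abundant transcript and -0.0276 without IMA1 and SA1 (chosen after seeing the data), and ran from -0.0309 without SA replicate 1 to 0.0498 without SA replicate 3. COL3A1 turned to -0.13 under quantile normalization. Where no construction shows it, the cause was not tested. Calls by adjusted p were lost under some settings by COL1A1, LPL, CSPG4, ITGB1, ABCC9 and THY1, all under 2-fold. The files hold no counts, so values near 0 set no lower limit.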

Other observations

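The genes in the next paragraphs were chosen after their values were seen. The IMA libraries were higher in 4 small heat shock genes, chaperones of the sarcomere and of other cells under stress. CRYAB, alpha-B crystallin, stood at 746, 885, 828, 878 and 876 FPKM in the IMA libraries and 2.76, 2.15, 2.60, 3.84 and 2.99 FPKM in the SA libraries. The difference was 7.78 (SE 0.0961, adjusted p = 3.05e-15), with no overlap. HSPB8 reached 193 ± 13.9 FPKM in IMA and was listed at 0 in 4 of 5 SA libraries. HSPB3 reached 91.6 ± 3.43 FPKM and was also listed at 0 in 4 of 5 SA libraries. HSPB2, which lies in the same family, was 65.2 ± 3.21 FPKM in IMA and 1.10 ± 0.136 FPKM in SA.

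Some secreted proteins differed as well, in both directions. IGFBP2, a binding protein of insulin-like growth factors, stood at 1314, 1054, 1155, 1209.7 and 1267 FPKM in the IMA libraries and 41.1, 42.8, 39.7, 35.7 and 42.3 FPKM in the SA libraries. IGFBP3, another binding protein of the same ligands, showed the opposite at 4.46, 4.71, 4.37, 4.95 and 4.75 FPKM in the IMA libraries and 42.6, 39.3, 38.6, 42.2 and 39.3 FPKM in the SA libraries. The differences were 4.86 and -2.87, without overlap in either gene. The chemokine CXCL12 was 6.08 ± 0.507 FPKM in IMA and 58.5 ± 5.27 FPKM in SA. Of secreted Wnt antagonists, WIF1 was 2.77 ± 0.435 FPKM against 36.2 ± 1.82 FPKM (-3.31) and SFRP4 23.9 ± 2.76 FPKM against 107 ± 7.10 FPKM (-2.12). GREM1, an antagonist of bone morphogenetic proteins, was also higher in SA, with a difference of -2.21 (SE 0.0368, adjusted p = 4.86e-14). TFPI2, a protease inhibitor of the matrix, stood at 535 ± 84.7 FPKM in IMA and 2714 ± 105 FPKM in SA, and GPX3, the secreted glutathione peroxidase, at 96.2 ± 7.95 FPKM and 499.7 ± 13.8 FPKM. These 6 genes were higher in every SA library than in any IMA library.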
